A study of Mus musculus with 8 samples.

Results

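The genes described here encode the proteins of the small, 40S subunit of the cytosolic ribosome. The list holds 30 genes, among them Gnb2l1, now called Rack1, which encodes a scaffold protein on the head of the subunit, and Rps27l, a paralog of Rps27. All 30 were found in the mouse annotation. A gene was counted as bound when the nearest deposited MYSM1-FLAG peak summit lay within 1000 bp of the transcription start site (TSS) of any of its transcripts. By that rule 13 of the 30 genes were bound, or 43.3%, with an exact 95% Clopper-Pearson interval of 25.5% to 62.6%. Among all 22238 protein-coding genes the same rule called 126, or 0.567%.

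The study used chromatin immunoprecipitation and sequencing in 2 mouse blood cell lines: Ba/F3, a pro-B line kept in interleukin 3 from WEHI conditioned medium, and HPC7, a multipotent progenitor line kept in stem cell factor. Both lines stably carried murine MYSM1 with a triple FLAG tag and were selected with puromycin, so every library came from cells with added tagged protein. The labels do not say whether either line was 1 clone. There were 8 libraries, 1 per group: MYSM1-FLAG, H2AK119ub, H3K27ac and input in each line. The values below come from 1 list of 2099 MYSM1-FLAG summits on mm9, which does not say which line a summit came from.

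MYSM1 is a deubiquitinase that removes ubiquitin from histone H2A, a mark laid down by Polycomb complexes, and it is needed for blood stem cell function and B cell development. The small subunit reads messenger RNA: its head, body and platform hold the decoding centre, the channel through which messenger RNA enters and leaves, and the sites where initiation factors dock. Genes for ribosomal proteins are transcribed at high rates in dividing cells, usually from a sharply placed start in a run of pyrimidines, and many carry small nucleolar RNA genes in their introns. In people, loss of 1 copy of several of these genes causes Diamond-Blackfan anemia, a failure of red cell production.

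The list gave positions alone, without height, score, read depth or replicate. Whether a gene was bound is therefore a yes or no value with no replicate error, and intervals on shares of genes cover counting error only. Of the 2099 summits, 1615 (76.9%) lay at tandem purine repeats or in sequence with more than 10 copies in the genome, and 732 (34.9%) had a 201-base window whose median 31-base word occurred once. The classes overlap, so these shares add to more than the whole list. The identity of the cell lines could not be checked against markers, since no expression value was at hand, and values from cells without the tag were not used here.

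The bound and unbound genes were far apart on the distance scale. The farthest bound summit, at Rps3a, was 295 bp from the nearest TSS, and the nearest unbound gene, Rps26, was 77516 bp from any summit. No gene of the list lay in between, so the count of 13 was the same at 500, 2000 and 5000 bp, while the share of all protein-coding genes was 1.29% at 5000 bp. At 250 bp 12 genes remained within the window. At 100 bp there were 7, beside 0.166% of all protein-coding genes.

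**Figure D1:**
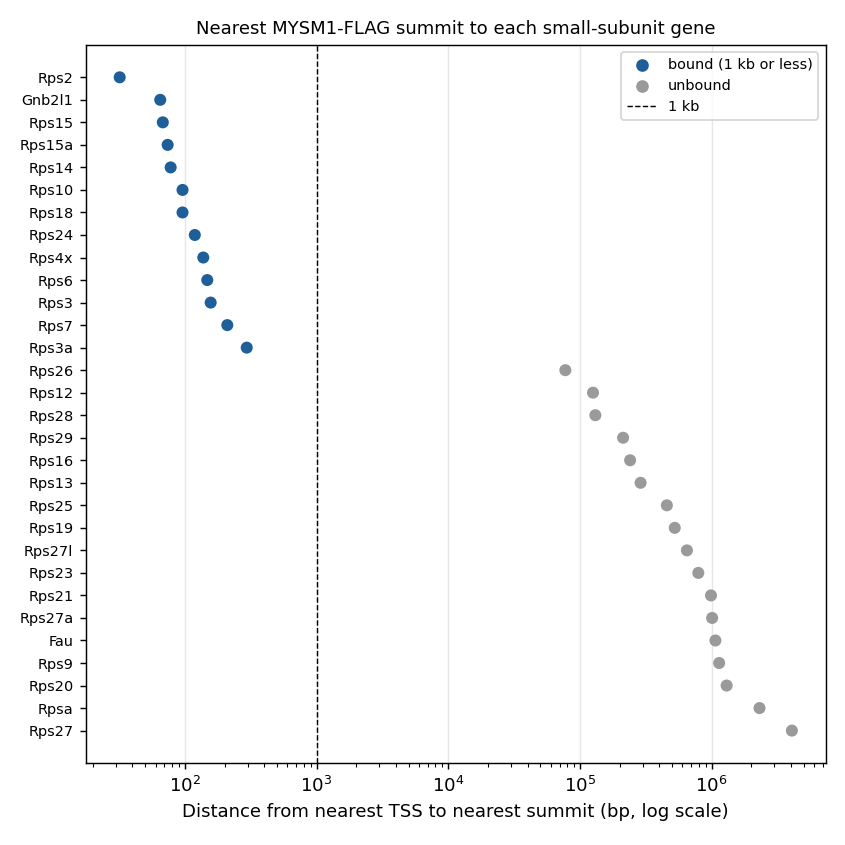
Distance in bp from the nearest MYSM1-FLAG summit to the nearest annotated TSS for each of the 30 genes, on a log axis, with 1 point per gene and the 1000 bp limit as a line. The 13 bound genes lie at or under 295 bp and the 17 unbound genes at or above 77516 bp.

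Of the 13 genes whose proteins form the head of the subunit, 5 were bound (38.5%, interval 13.9% to 68.4%). At Rps3, whose protein lines the entry of the messenger RNA channel (chr7:106626406-106632248, minus strand), the summit lay at position 106631987, in an intron. Rps10, whose protein sits next to that entry (chr17:27767367-27773574, minus strand), had its summit at 27772078, in an exon of 1 of the 6 transcripts that cover it. Rps15, needed for late steps of subunit export (chr10:79755176-79756859, plus strand), had its summit at 79755322, in an intron. Rps18, whose protein contacts the large subunit (chr17:34088944-34092946, minus strand), had its summit at 34092502, in an exon of 2 of 6 transcripts there. That summit was also within 1000 bp of a TSS of Vps52, a gene that starts 86 bp from the start of Rps18. Gnb2l1 (chr11:48613834-48619936, plus strand) had its summit at 48613941, in an exon of all 4 transcripts there. In each of these 5 genes the summit therefore lay inside the gene, near a TSS.

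Of the 16 genes of the body and platform, 8 were bound (50.0%, interval 24.7% to 75.3%). Rps2, whose protein lies at the channel entry (chr17:24855061-24858874, plus strand), had its summit at 24857164, and Rps3a, on the platform (chr3:85941862-85946624, minus strand), had its summit at 85946329. The X-linked Rps4x (chrX:99380280-99384733, minus strand) had its summit at 99384526. Rps6, the substrate of S6 kinase (chr4:86500564-86503316, minus strand), had its summit at 86503088. Rps7 (chr12:29315712-29320818, minus strand), whose protein also binds the p53 regulator MDM2, had its summit at 29320608. Rps14, the gene tied to the anemia of the 5q- syndrome (chr18:60934164-60938200, plus strand), had its summit at 60934413. The summit of Rps15a (chr7:125247892-125259700, minus strand) was at 125259568. Rps24 (chr14:25309903-25315368, plus strand), one of the Diamond-Blackfan genes, had its summit at 25310059. The summits of Rps3a, Rps4x, Rps7 and Rps24 were in introns, and those of Rps2, Rps14, Rps15a and Rps6 were in an exon of 1 of the 3, 3, 3 and 4 transcripts there.

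The 17 unbound genes had their nearest summit 77.5 to 4070 kb away, with a median of 650.0 kb. Those of the head were Rps12, Rps16, Rps19, Rps20, Rps25, Rps27a, Rps28 and Rps29. Rps19, the most often mutated gene in Diamond-Blackfan anemia, was 524917 bp from a summit. Rps28 was 130995 bp from one, and that summit was the one at Rps18 on the same chromosome. Rps27a, which encodes a ribosomal protein fused to ubiquitin, was 1009333 bp away. Those of the body and platform were Rpsa, Rps9, Rps13, Rps21, Rps23, Rps26, Rps27 and Fau. Fau, which encodes a ribosomal protein fused to a ubiquitin-like protein, was 1068716 bp away, and Rpsa, also known as the laminin receptor, was 2311352 bp away. Rps27 was the farthest, at 4071244 bp, and its paralog Rps27l, a p53 target, was 649566 bp away.

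Some chromosomes held both bound and unbound genes. Chromosome 7 held 6 of the genes, of which Rps3 and Rps15a were bound and Rps9, Rps13, Rps16 and Rps19 were not. Chromosome 17 held 4, of which 3 were bound. None of the 3 genes on chromosome 9 (Rpsa, Rps25 and Rps27l) was bound.

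The summits lay just downstream of the start. RefSeq starts could be placed on mm9 for 26 of the 30 genes, 12 of them bound and 14 unbound. All 12 summits were downstream of that start, by 79 bp at Gnb2l1 to 261 bp at Rps3a, with a median of 158 bp. By gene the offsets were 93 bp at Rps15a, 108 at Rps18, 111 at Rps10, 146 at Rps15, 156 at Rps2, 159 at Rps24, 183 at Rps6, 204 at Rps4x, 210 at Rps7 and 232 at Rps3. Large-subunit genes gave nearly the same picture: 21 of 21 bound genes with a RefSeq start had the summit downstream, by 77 to 258 bp, median 148 bp. Of 87 other protein-coding genes with a summit, 66 had a RefSeq start, which was not always the start near the summit. Of these 66, 44 had the summit downstream of that start, with a median offset of 143 bp and quartiles of -201 and 819 bp. A band of 50 to 300 bp, chosen after the values were seen, held 12 of 12 small-subunit, 21 of 21 large-subunit and 16 of 66 other genes (24.2%). The quartiles in the small subunit were 110 and 206 bp, so its summits shared a median near that of the other genes and spanned a narrower range. Measured from the nearest of all annotated TSSs, 11 of the 13 summits were downstream, at -68 to 295 bp with a median of 96 bp; the exceptions were Rps2 (-32 bp) and Rps15 (-68 bp), each of which has an annotated TSS beyond its summit.

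Most summits were past the first exon. For the transcript that starts nearest the RefSeq start, 10 of 12 summits lay 61 to 137 bp beyond the end of the first exon, that is, in the first intron of that transcript. They were Rps18 (61 bp), Rps10 (71), Rps24 (79), Rps2 (87), Rps15 (94), Rps3a (101), Rps4x (111), Rps7 (113), Rps3 (115) and Rps6 (137). At Rps15a the summit stood at -314 bp from the end of that exon, that is inside it, but 82 and 43 bp past the first exon of 2 other transcripts. At Gnb2l1 it stood at -133 bp, also inside the exon. Rps14 had its summit 73 bp past the first exon of the transcript that starts farthest upstream, 249 bp from that transcript's TSS. In the large subunit 19 of 21 summits were past the first exon (median 63 bp), and among the other genes 32 of 66 were (median -13 bp).

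**Figure D2:**
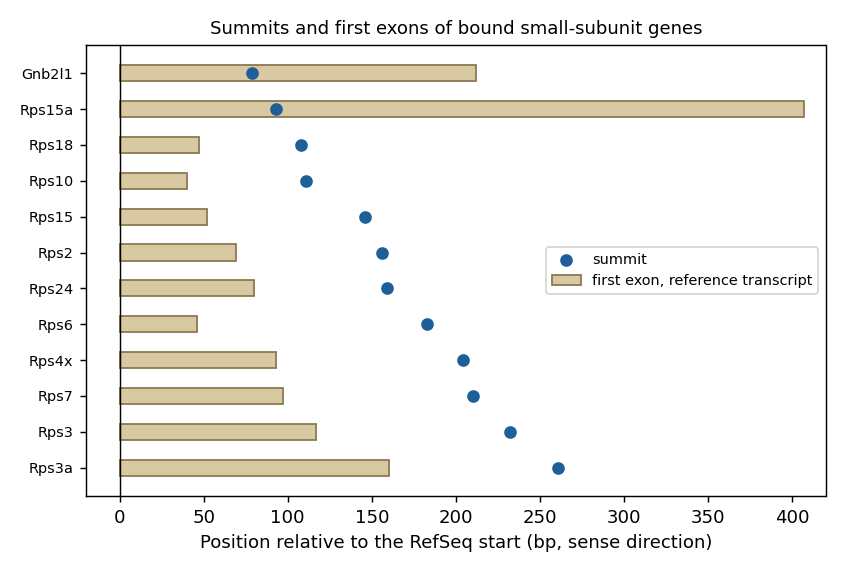
Position of the summit (points) and extent of the first exon of the reference transcript (bars, drawn from the RefSeq start) in bp for the 12 bound genes with a RefSeq start, in the sense direction. In 10 genes the point lies beyond the bar, and at Rps15a and Gnb2l1 it lies inside it.

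The DNA under the summits was read from mm9 as 101 bases centred on each summit. The 9 windows with no base counted as untranslated exon sequence are shown because they share short words. Some annotated transcripts do have an exon over the summits of Rps10, Rps18 and Rps6, as given above. Each is written 5′ to 3′ on the sense strand of its gene, the summit is base 51, and capitals mark the words GATGG and CGGAT on either strand (CCATC and ATCCG when read from the other strand).
Rps15 (chr10:79755272-79755372, plus strand): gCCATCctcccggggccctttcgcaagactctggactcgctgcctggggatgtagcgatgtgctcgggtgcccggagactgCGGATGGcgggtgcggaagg
Rps10 (chr17:27772028-27772128, minus strand): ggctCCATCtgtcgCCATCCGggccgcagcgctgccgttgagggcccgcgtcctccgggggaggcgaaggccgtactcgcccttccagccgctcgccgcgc
Rps18 (chr17:34092452-34092552, minus strand): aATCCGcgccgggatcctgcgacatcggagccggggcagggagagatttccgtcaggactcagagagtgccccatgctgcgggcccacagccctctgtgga
Rps24 (chr14:25310009-25310109, plus strand): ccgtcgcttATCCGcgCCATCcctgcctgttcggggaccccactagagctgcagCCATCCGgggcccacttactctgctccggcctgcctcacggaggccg
Rps4x (chrX:99384476-99384576, minus strand): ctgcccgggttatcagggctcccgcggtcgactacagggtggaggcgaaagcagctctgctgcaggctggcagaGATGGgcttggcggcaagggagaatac
Rps6 (chr4:86503038-86503138, minus strand): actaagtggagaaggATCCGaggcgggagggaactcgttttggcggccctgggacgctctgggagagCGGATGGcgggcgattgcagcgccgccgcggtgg
Rps3 (chr7:106631937-106632037, minus strand): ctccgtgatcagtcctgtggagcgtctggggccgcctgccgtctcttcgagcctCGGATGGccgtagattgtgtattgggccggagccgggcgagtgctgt
Rps7 (chr12:29320558-29320658, minus strand): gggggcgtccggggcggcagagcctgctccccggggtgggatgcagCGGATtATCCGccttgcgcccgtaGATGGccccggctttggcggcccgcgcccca
Rps3a (chr3:85946279-85946379, minus strand): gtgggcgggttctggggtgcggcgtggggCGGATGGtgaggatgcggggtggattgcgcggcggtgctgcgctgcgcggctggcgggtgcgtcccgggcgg

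Each of the 9 windows holds at least 1 of these words, and in Rps15, Rps10, Rps24, Rps6, Rps3 and Rps3a the pair overlaps to form CGGATGG. The word GATGG was picked after these windows had been seen, and CGGAT by ranking all 512 words of 5 bases, strands joined, in the same windows, so their counts here are a description. Of the 12 bound genes with a RefSeq start, 10 (83.3%, interval 51.6% to 97.9%) held GATGG at the summit, 10 held CGGAT, 6 (50.0%) held CGGATGG, and 12 held at least 1 of the shorter words. The share of other genes with at least 1 of the shorter words was not counted. Windows of the same size placed 200 bp upstream held GATGG in 1 gene, CGGAT in 2 and CGGATGG in 0 of 12; windows 200 bp downstream held them in 1, 1 and 0. A count of 0 of 12 allows a share of up to 26.5%. Both words were picked in the summit windows of these genes, so the lower counts 200 bp to either side follow in part from that choice. In the 10 genes with GATGG in the summit window, the nearest was centred between 34 bp upstream and 35 bp downstream of the summit. It read on the sense strand in 6. The median position was 7 bp downstream, but it is of signed values, in which the 2 sides offset each other. Only the summit window was searched, so the window itself bounds this range. These positions therefore cannot show whether the word is centred on the summit.

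Large-subunit windows took no part in choosing GATGG. There 15 of 21 (71.4%) held GATGG at the summit, 12 (57.1%) held CGGAT and 7 (33.3%) held CGGATGG. With 200 bp upstream the counts were 1, 2 and 0 of 21, and with 200 bp downstream 5, 3 and 0. Among the 512 words, GATGG came first and CGGAT second in the large subunit by excess over other genes (52.3 and 49.9 percentage points). In the small subunit CGGAT came first and GATGG second (76.0 and 64.2 points), but that ranking is the one that picked CGGAT. At 66 other protein-coding genes with a summit outside repeats, 50.0% held GATGG, 40.9% CGGAT and 19.7% CGGATGG. In 22208 protein-coding genes outside the list, windows placed 158 bp past the start held them in 19.1%, 7.29% and 0.874%. The words were thus also present at summits outside the small subunit.

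**Figure D3:**
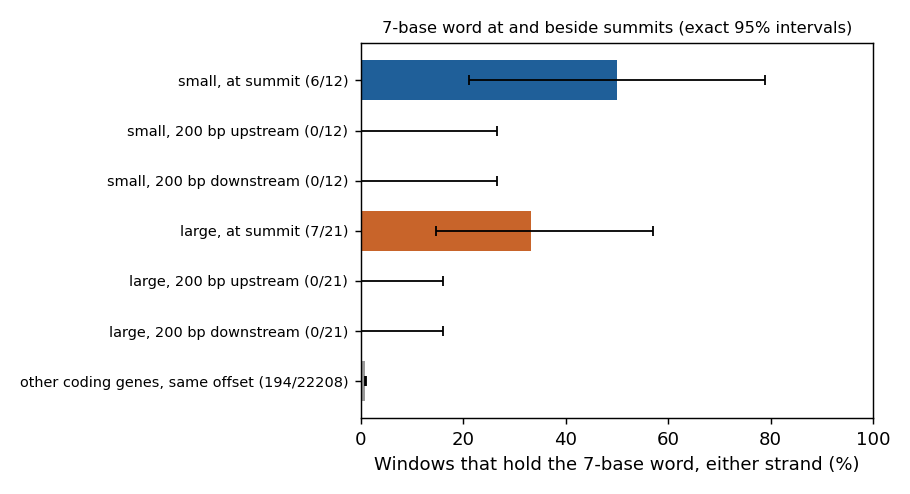
Share in percent of 101-base windows that hold the 7-base word on either strand, at summits and 200 bp to each side, for bound small-subunit and large-subunit genes and for other protein-coding genes 158 bp past their start. Bars are shares, lines are exact 95% intervals for counting error. The word was in 6 of 12 and 7 of 21 summit windows and in 0 of 12 and 0 of 21 windows on each side.

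Some unbound genes held the words near the start. At the same 158 bp offset 4 of 14 unbound genes held at least 1 of the 5-base words. Rps25 and Rps28 held GATGG, Rps9 held CGGAT, and Fau held both and the longer word. GATGG was thus in 3 of 14 (21.4%), near the 19.1% of other protein-coding genes at that offset, where CGGAT was in 7.29%. The share of other genes with either word was not counted. It is at least the 19.1% with GATGG, so the 4 of 14 is not read as a result about unbound genes. Over the first 300 bases from the start, GATGG was in 11 of 12 bound and 9 of 14 unbound genes, CGGAT in 11 and 3 (Rps9, Rps19 and Fau), and CGGATGG in 6 and 1. The 1 unbound gene with the longer word was Fau. In the large subunit GATGG was in 19 of 21 bound and 10 of 15 unbound genes over those bases, CGGAT in 16 and 5, and CGGATGG in 10 (47.6%) and 1 (6.67%). Other protein-coding genes held GATGG in 46.5%, CGGAT in 20.6% and CGGATGG in 2.47%, so the 21.4% of unbound small-subunit genes with CGGAT was near that background. The bound genes Gnb2l1, Rps2, Rps4x, Rps7, Rps15a and Rps18 lacked the longer word, and the unbound Fau held it. GC had a median of 67.3% (52.5% to 78.2%) at the summits of bound genes and 67.8% at the same offset in unbound genes, with 69.3% at large-subunit summits and 59.4% at that offset in other protein-coding genes. On the sense strand the median share of C was 30.2% in bound and 24.8% in unbound genes, and that of A was 12.4% and 15.3%. A match is a description of letters, not a binding site.

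The start sequences were compared next, because ribosomal protein genes are known for a pyrimidine run there. The 3 bound genes with the summit nearest an annotated TSS (Rps2, Gnb2l1, Rps15), the 3 with it farthest (Rps3, Rps7, Rps3a) and the first 6 unbound genes of the list are shown from 10 bases before the RefSeq start to base 20 after it, with the longest pyrimidine run in capitals.
Rps2 (chr17:24856998-24857027, plus strand): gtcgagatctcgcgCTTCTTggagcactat
Gnb2l1 (chr11:48613852-48613881, plus strand): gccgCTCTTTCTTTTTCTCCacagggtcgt
Rps15 (chr10:79755166-79755195, plus strand): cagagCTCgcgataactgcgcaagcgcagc
Rps3 (chr7:106632200-106632229, minus strand): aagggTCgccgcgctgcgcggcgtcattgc
Rps7 (chr12:29320799-29320828, minus strand): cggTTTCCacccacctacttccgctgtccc
Rps3a (chr3:85946571-85946600, minus strand): gCCggaagggcgaaagagcaagggtcacgt
Rpsa (chr9:120036874-120036903, plus strand): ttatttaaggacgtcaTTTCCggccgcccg
Rps9 (chr7:3655633-3655662, plus strand): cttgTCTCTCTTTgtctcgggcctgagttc
Rps12 (chr10:23506996-23507025, minus strand): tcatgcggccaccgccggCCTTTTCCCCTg
Rps13 (chr7:123477685-123477714, minus strand): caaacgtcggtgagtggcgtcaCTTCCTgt
Rps16 (chr7:29135698-29135727, plus strand): TTCTgtcgtgacgtagcactcaatgcgcct
Rps19 (chr7:25669601-25669630, plus strand): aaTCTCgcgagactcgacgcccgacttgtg

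In this window the runs did not separate bound from unbound genes. The window was set from the most upstream RefSeq start placed on mm9. Other annotated starts, such as that of Rps3 at position 106632144, were not read, so a short run here does not show that a gene lacks one. Gnb2l1 (bound) and Fau (unbound) both had a run of 16, Rps10 and Rps12 had runs of 13 and 11, and Rps3 and Rps3a, both bound, had runs of 2. The median was 7.5 bases in 12 bound and 6.5 in 14 unbound genes, beside 4 over 17492 coding promoters of the RefSeq table. A run of 5 or more was present in 8 of 12 bound genes (66.7%), 10 of 14 unbound genes (71.4%) and 46.0% of all these promoters.

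Promoter sequence from 250 bases before to 50 after the RefSeq start was searched on both strands for known consensus sequences. The ETS family sequence CCGGAAG was in 6 of 12 bound and 5 of 14 unbound genes, or 42.3% of all 26, beside 11.9% of all coding promoters. The SP1 sequence GGGCGG was in 6 bound and 8 unbound genes (53.8% of 26, beside 46.3%). The YY1 sequence AAGATGGC, which contains GATGG, was in Rps15a, Rps27 and Fau (11.5%, beside 3.22%). In the summit windows described above, AAGATGGC was in 0 of 12 small-subunit and 0 of 21 large-subunit genes. In windows 158 bp past the start it was in 0 of 14 unbound small-subunit genes and 0.702% of other protein-coding genes. The ZBTB33 sequence TCTCGCGAG was in Rps6, Rps19 and Rps28 (11.5%, beside 1.02%). The NFY sequence CCAAT was in 3 bound and 5 unbound genes (30.8%, beside 39.0%), and the TATA sequence TATAAA was in Rps2 and Rps28 (7.69%, beside 13.3%). The cyclic AMP element TGACGTCA was in Rps9 and Fau (7.69%, beside 2.34%). The E-box CACGTG and the NRF1 sequence GCGCATGC were in none of the 26, beside 7.9% and 3.61% of all coding promoters. Each of these counts differed by at most 2 genes between the bound and unbound groups. Promoter GC content had medians of 56.2% in bound and 59.8% in unbound genes, beside 56.3% over all coding promoters, and the observed over expected ratio of CpG was 0.874 and 0.933, beside 0.576.

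The first introns of bound and unbound small-subunit genes had different medians, described here without a test. The median was 600 bp in 12 bound genes, from 140 bp at Rps2 to 1090 bp at Gnb2l1, and 232 bp in 14 unbound genes, from 87 bp at Rps28 to 650 bp at Rps27l. The ranges overlapped. A first intron over 400 bp, a limit chosen after the values were seen, was present in 9 of 12 bound genes (75.0%) and 3 of 14 unbound genes (Rpsa, Rps19 and Rps27l). The short-intron bound genes were Rps2 (140 bp), Rps7 (192 bp) and Rps15 (291 bp). The span of the reference transcript had medians of 3950 and 2000 bp. In the large subunit the first intron had a median of 383 bp in 21 bound and 396 bp in 14 unbound genes, and 9 of 21 and 7 of 14 were over 400 bp. Its 14 unbound genes include the paralogs Rpl3l (430 bp) and Rpl39l (90 bp). In that subunit the medians of the groups were therefore close to each other.

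**Figure D4:**
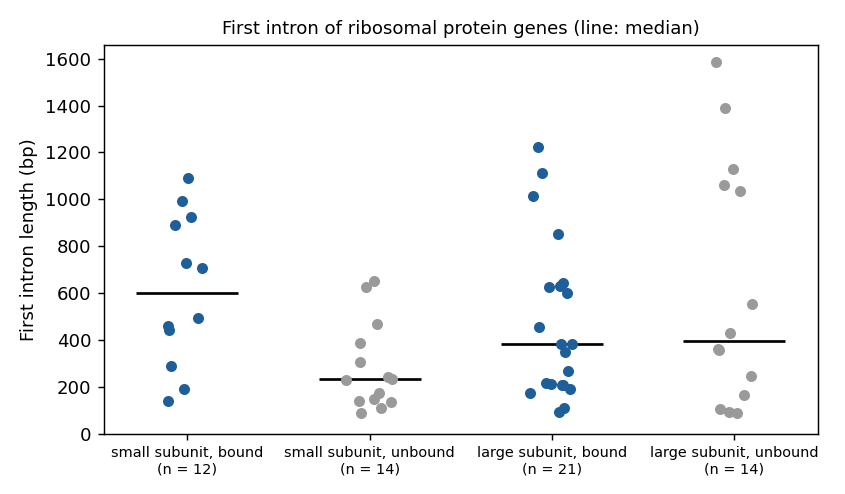
Length in bp of the first intron of the reference transcript, with 1 point per gene and the median as a bar, for bound and unbound small-subunit and large-subunit genes. Medians are 600 and 232 bp in the small subunit and 383 and 396 bp in the large subunit.

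A small nucleolar RNA gene lay inside 4 of 13 bound genes (Rps2, Rps3, Rps3a and Gnb2l1) and 5 of 17 unbound genes (Rpsa, Rps12, Rps13, Rps16 and Rps20), or 30.8% and 29.4%. Another coding TSS lay within 1000 bp of the start of 2 of 13 bound and 5 of 17 unbound genes. Bound genes had a median of 5 annotated transcripts and unbound genes 2. With the 5′ end of each gene as its only start, 11 genes were bound.

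Ribosomal protein genes have many processed copies in the genome, so the uniqueness of the sequence was checked. Of the words of 31 bases within 250 bp of the start, a median of 98.6% (88.1% to 100%) occurred once in the genome in bound genes and 97.3% (85.6% to 100%) in unbound genes. The 201-base windows at all 13 summits had a median copy number of 1, and words with more copies were found at Rps2 (up to 14) and Rps18 (up to 5), in both cases falling to 1 with words of 50 bases. These windows cover the start and the summit alone, so copies of other parts of a gene were not counted. The annotation holds 44 pseudogenes whose name is that of a listed gene followed by -ps. Copies under other names were not searched. None of the 44 had a summit within 1000 bp, and the nearest was 18819 bp away.

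The same rule was applied to other gene groups of translation. In the large subunit 26 of 49 genes were bound (53.1%, interval 38.3% to 67.5%), which overlaps the interval of the small subunit. These 49 were taken by gene symbol and include paralogs such as Rpl3l and Rpl39l, both unbound. Of 29 genes for the mitochondrial small subunit 0 were bound, which allows a share of up to 11.9%, and of 27 factors that assemble the 40S subunit 0 were bound, which allows up to 12.8%. Of 25 initiation factors that work at the 40S subunit, 1 was bound (4.0%, interval 0.101% to 20.4%), Eif3d, a subunit of the initiation factor eIF3. Of the 9 small-subunit genes mutated in Diamond-Blackfan anemia, Rps7, Rps10, Rps15a and Rps24 were bound (44.4%, interval 13.7% to 78.8%) and Rps19, Rps26, Rps27, Rps28 and Rps29 were not. That share is close to the 43.3% of the whole list.

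**Figure D5:**
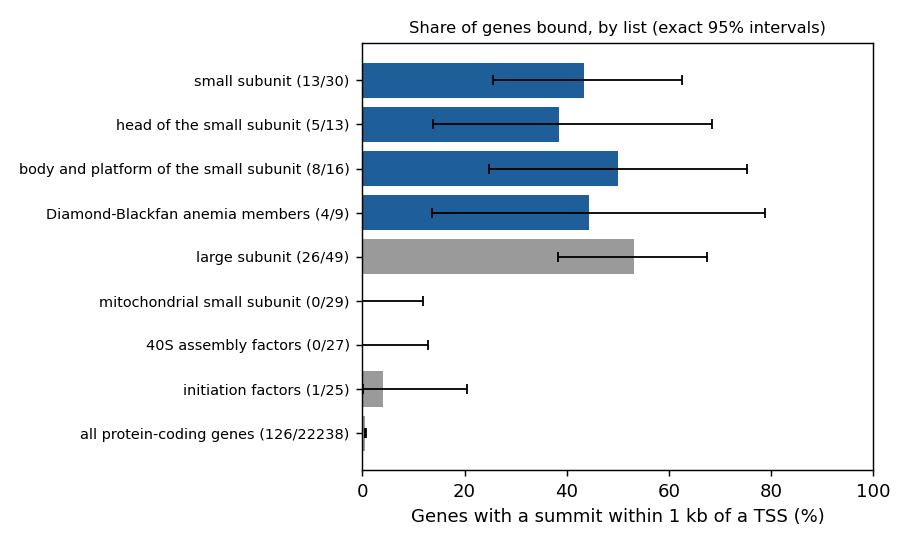
Share of genes in percent with a summit within 1000 bp of a TSS, by gene list, with exact 95% intervals for counting error. The small-subunit list stands at 43.3% and the large-subunit list at 53.1%, the mitochondrial small subunit and 40S assembly factors at 0, and all protein-coding genes at 0.567%.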

How the data were processed

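Chromatin immunoprecipitation libraries of 2 lines were used as 1 list: the authors deposited 2099 MYSM1-FLAG summit positions (unit "other": a chromosome position per line, start equal to end, with a name and no score). Bowtie 1.0.0, MACS 1.4.1 and mm9 are named in the submitters' processing notes; thresholds, controls, pooling of the lines and the handling of reads with several placements: not given in the sources used here. An aligner that drops such reads can hide summits at genes with copies. Histone mark and input libraries: not analysed here.

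Positions were joined to the NCBIM37 genome (mm9) and GENCODE M1 with Python 3.11.15 and pysam 0.24.0. RefSeq promoters (GRCm38.p6 table) were placed on mm9 by exact, unique sequence match. The offset code was tested on simulated data, where 40 of 40 planted summits were recovered. All 30 genes are named, with genes of other lists or neighbours that hold a summit. Members and lists were chosen with earlier results of these data known. No test was run, since there are no replicates. Alternatives were other windows, TSS sets, position bases, word lengths and summits outside repeats; RefSeq starts were added after the data had been seen.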

Additional observations from a re-analysis of the deposited data

How the results depend on the processing

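The count of 13 bound small-subunit genes fell to 7 with a window of 100 bp, where the large-subunit share was 30.6% in place of 53.1%. With the 5′ end of each gene as its only start, the median distance of the summit was 210 bp in place of 96 bp and Rps2 and Rps10 were no longer bound, which left 11. That count and the other values, 18 in all, over the remaining windows, coding transcripts alone, positions counted from 0, summits outside repeats, RefSeq starts (12 genes, without Rps14) and words of 36 and 50 bases, moved by less than the limits set for a change. These limits were wide: a median distance of 151 bp with RefSeq starts, in place of 96 bp, stayed within them. The signed distances of the 13 bound genes had a standard deviation of 93.6 bp. No paired analysis was possible because each group is 1 library and the list gives no value per library. For the same reason no replicate could be left out. The depth behind a summit is unknown, so an unbound gene is one without a listed summit, not one shown to lack MYSM1.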

Other observations

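The summits of the 13 bound small-subunit genes carry running numbers from 2 to 71 in the deposited list, which is not in genome order. Of the first 71 summits, 68 (95.8%) lay within 1000 bp of a coding TSS, and of the 2028 that follow, 48 (2.37%) did. Neither the list nor the labels say what the order stands for, so it was not read as strength. Rps15 had a further summit at position 79759180 on chromosome 10, 3790 bp downstream of its nearest TSS. No other bound gene had a second summit within 5000 bp of a TSS.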
